A study of Homo sapiens with 4 samples.

Results

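The genes described here are 9 genes of the bone morphogenetic protein (BMP) and transforming growth factor beta (TGF-beta) system, measured upon knockdown of GALNT3 in A2780s cells. They are the BMP ligands BMP2, BMP4 and BMP7, the TGF-beta and activin ligands TGFB1, TGFB2 and INHBA, the secreted antagonists GREM1 and FST, and the BMP-induced gene ID1. They were chosen by their ratios between knockdown and control cells on these same arrays, so those ratios are given as a description with no test. Of 17240 genes that could be named on the array, these 9 are represented by 12 probes, and all 12 were measured. A2780s is a human epithelial ovarian cancer line, and GALNT3 encodes an enzyme of the Golgi that starts mucin-type O-glycosylation. The clones labelled sh-G1 and sh-G2 are separate stable lines grown from cells transfected with the same shRNA against GALNT3 carried by pSilencer 4.1 puro, and the ctrl clone was mock-transfected with the vector lacking it. All were selected in puromycin, and the labels give no further treatment and no time point. Each knockdown clone was set against ctrl on 2 arrays, with the knockdown clone in Cy5 in replicate 1 and in Cy3 in replicate 2. There is 1 ctrl clone, so what is particular to that clone and what the shRNA changed cannot be told apart. The 2 arrays of a clone were taken as repeats of 1 culture, since nothing in the labels says that they came from separate ones.

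BMPs and TGF-betas are secreted dimers that bind pairs of serine/threonine kinase receptors. BMP receptors activate SMAD1, SMAD5 and SMAD9, TGF-beta and activin receptors activate SMAD2 and SMAD3, and both groups act with SMAD4 in the nucleus. Antagonists such as gremlin and follistatin hold the ligands outside the cell, and the ID genes and MSX1 are well-known BMP targets. In the ovary BMPs and TGF-betas take part in follicle growth, and in ovarian cancer cells TGF-beta family ligands are studied for their part in invasion.

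The knockdown channel had 88.1% to 97% of its spots well above background and the ctrl channel 95.9% to 97.6%, and sh-G2 replicate 2 had the lowest share. Across the 39152 probes kept, which are not independent replicates, r was 0.61 and 0.73 between arrays of different clones with one dye orientation, and 0.32 and 0.19 between the dye-swapped arrays of a clone. The single GALNT3 probe had log2 ratios of -0.09 and 0.08 in sh-G1 and 0.12 and -0.14 in sh-G2. Its ctrl signal lay on average 0.29 (log2) above the lowest signal well above background, so the arrays cannot check the knockdown and the clones are called by their labels. All 7 ovarian epithelial markers looked at were well above background in ctrl on every array, and so were 5 of 5 fibroblast, 3 of 3 endothelial and 4 of 4 immune markers, so that this mark did not tell cell types apart. Log2 ratios over ctrl ran from -2.32 (KRT18) to -0.01 in the epithelial list and from -3.31 (LUM) to 0.90 (COL3A1) in the fibroblast list, and between -0.07 and 0.04 in the other lists. Their part in the results was not tested.

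Among the ligands of the BMP branch, BMP2 and BMP4 were lower and BMP7 was higher in both knockdown clones than in ctrl. BMP2, a ligand of bone and heart development that acts mainly through BMPR1A and BMPR1B, had log2 ratios of knockdown over ctrl of -1.42 and -0.96 in sh-G1 and of -2.99 and -2.60 in sh-G2. The arrays of the 2 clones did not overlap, and those of sh-G2 lay lower. The mean was -1.99 ± 1.13 (SD, n = 2 clones). In RNA of whole cultures, fewer cells with a transcript and less of it per cell cannot be told apart. In ctrl the BMP2 signal, as log2 of the normalized intensity, was 9.63, 9.24, 9.69 and 9.31 on the 4 arrays, against 8.21 and 8.28 in sh-G1 and 6.70 and 6.71 in sh-G2. The sh-G2 signal was well above background on 1 of its 2 arrays and close to the lowest signal well above background, which was 6.13 to 6.52 in the knockdown channels, so no exact fold is given.

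BMP4, the closest relative of BMP2 in sequence and receptor use, had log2 ratios of -1.20 and -0.89 in sh-G1 and of -1.37 and -0.93 in sh-G2. The arrays of the clones overlapped, and the mean was -1.10 ± 0.07 (SD, n = 2 clones). The BMP4 signal in ctrl was 7.93 and 7.91 where ctrl carried Cy3 and 7.45 and 7.48 where it carried Cy5, against 6.54 to 6.73 in the knockdown clones. On 3 of 4 arrays the knockdown signal was well above background, and sh-G2 replicate 2 was the exception. In both clones the signal lay close to that lowest signal, and ctrl on average 1.61 above it, so the size of the difference and its likeness in the clones are limited by the background. With an offset of 0 the mean was -1.80 for BMP4 and -2.52 for BMP2. With the scanner software's own log ratio, made without the offset of 50 that is added to the signals here, the mean was -2.17 for BMP4 and -2.86 for BMP2.

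BMP7, a ligand of kidney and eye development that also signals through ACVR1, is covered by 3 probes. The brightest (A_23_P68487) had log2 ratios of 1.38 and 1.52 in sh-G1 and of 1.38 and 1.37 in sh-G2, with a mean of 1.41 ± 0.06 (SD, n = 2 clones), or 2.67-fold higher than in ctrl. Its signal was between 12.48 and 12.56 in ctrl and averaged 13.95 in sh-G1 and 13.91 in sh-G2, with no overlap between ctrl and either clone. The second (A_23_P154643) gave 0.49 and 0.69 in sh-G1 and 0.37 and 0.70 in sh-G2. The dimmest (A_24_P91566) gave 1.08 and 0.86 in sh-G1 and 0.18 and 1.08 in sh-G2. All 3 probes were thus above 0 on all 4 arrays, but they differed in size, with means of 1.41, 0.56 and 0.80. As the mean over the 3 probes BMP7 was 0.93 above ctrl (log2).

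**Figure D1:**
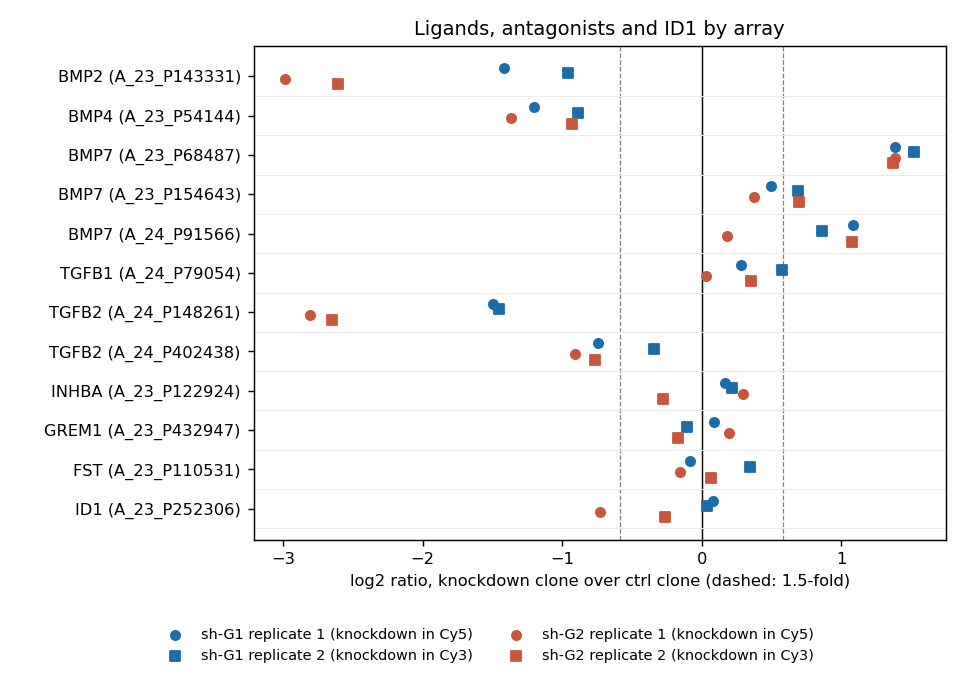
Log2 ratio of knockdown clone over ctrl clone (x axis) for each of the 12 probes of the 9 genes (y axis), 1 point per array; circles are arrays with the knockdown clone in Cy5, squares those with it in Cy3, and dashed lines mark 1.5-fold. BMP2, BMP4 and TGFB2 lie left of 0 on all arrays, the 3 BMP7 probes lie right of it, and BMP2 and TGFB2 lie further left in sh-G2 than in sh-G1.

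Set against each other, the brightest BMP7 probe exceeded the mean of BMP2 and BMP4 by 2.69 and 2.45 in sh-G1 and by 3.56 and 3.14 in sh-G2. This difference of log2 ratios had a mean of 2.96 ± 0.55 (SD, n = 2 clones). Since it rests on BMP2 and BMP4 signals near background, it gives the order of the ligands and no exact size. With the other BMP7 probes the mean was 2.11 (A_23_P154643) and 2.35 (A_24_P91566). With the scanner software's own log ratio the difference between BMP7 and the mean of BMP2 and BMP4 was 3.89.

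**Figure D2:**
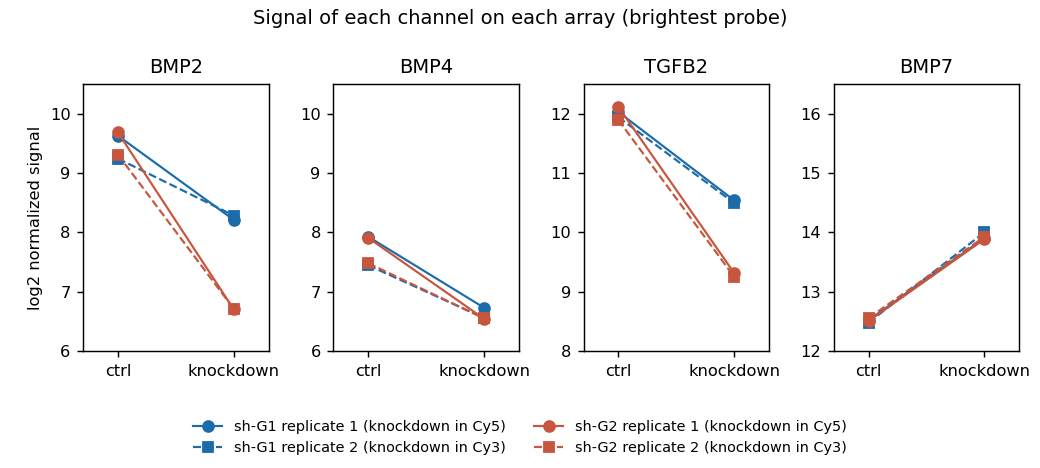
Log2 normalized signal (y axis, with an equal span in every panel) of the ctrl and the knockdown channel on each of the 4 arrays, joined by a line per array, for the brightest probe of BMP2, BMP4, TGFB2 and BMP7; signals of different probes are not on a common scale. Ctrl signals of TGFB2 and BMP7 lie close together across arrays, while those of BMP2 and BMP4 lie higher where ctrl carried Cy3 than where it carried Cy5. BMP2 and TGFB2 fall further in sh-G2 than in sh-G1, and the 4 BMP7 lines rise together.

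Of the TGF-beta and activin ligands, TGFB2 was lower in both clones. TGFB2, the TGF-beta of heart and palate development that needs the co-receptor betaglycan for full binding, is covered by 2 probes. The brighter (A_24_P148261) had log2 ratios of -1.49 and -1.45 in sh-G1 and of -2.80 and -2.65 in sh-G2, with a mean of -2.10 ± 0.89 (SD, n = 2 clones), or 4.28-fold lower than in ctrl. Its signal in ctrl was between 11.90 and 12.12, and it averaged 10.52 in sh-G1 and 9.28 in sh-G2. Signals of ctrl, sh-G1 and sh-G2 did not overlap. The dimmer probe (A_24_P402438) gave -0.74 and -0.34 in sh-G1 and -0.91 and -0.76 in sh-G2, in the same direction and smaller. As the mean over both probes TGFB2 was at -1.39.

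TGFB1, the most widely expressed TGF-beta, had log2 ratios of 0.29 and 0.58 in sh-G1 and of 0.03 and 0.35 in sh-G2. They were all above 0 and all under 1.5-fold, with a mean of 0.31 ± 0.17 (SD, n = 2 clones). INHBA, the subunit of activin A, gave 0.17 and 0.22 in sh-G1 and 0.29 and -0.28 in sh-G2, with 1 of 4 arrays on the other side of 0.

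Promoter sequences from RefSeq (GRCh38.p14), each from 250 bases before to 50 after a start site, were at hand for 7 of the 9 genes. They are shown for TGFB2 and BMP4, which were lower in both clones, and for ID1, the downstream gene. BMP4 has 3 such start sites, of which the one furthest downstream is printed. The TGFB2 window is chr1:218345086-218345385 (plus strand), the BMP4 window chr14:53953346-53953645 (minus strand) and the ID1 window chr20:31605039-31605338 (plus strand). Capitals mark matches on either strand to the E-box CACGTG, to TGACG (part of the cAMP response element), to the SMAD box CAGAC and to GGCGCC, a GC element known from BMP-induced genes.
TGFB2: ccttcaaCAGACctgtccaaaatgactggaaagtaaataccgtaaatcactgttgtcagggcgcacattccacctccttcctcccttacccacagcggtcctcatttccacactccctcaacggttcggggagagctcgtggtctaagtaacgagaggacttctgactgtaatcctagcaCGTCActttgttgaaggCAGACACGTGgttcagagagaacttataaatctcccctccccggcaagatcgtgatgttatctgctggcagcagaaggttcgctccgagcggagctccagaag
BMP4: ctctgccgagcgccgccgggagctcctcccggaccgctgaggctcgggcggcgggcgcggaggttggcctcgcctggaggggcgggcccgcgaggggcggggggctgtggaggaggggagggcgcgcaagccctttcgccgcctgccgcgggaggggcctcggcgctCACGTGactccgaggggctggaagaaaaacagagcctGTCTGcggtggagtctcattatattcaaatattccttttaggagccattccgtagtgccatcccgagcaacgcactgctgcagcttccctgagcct
ID1: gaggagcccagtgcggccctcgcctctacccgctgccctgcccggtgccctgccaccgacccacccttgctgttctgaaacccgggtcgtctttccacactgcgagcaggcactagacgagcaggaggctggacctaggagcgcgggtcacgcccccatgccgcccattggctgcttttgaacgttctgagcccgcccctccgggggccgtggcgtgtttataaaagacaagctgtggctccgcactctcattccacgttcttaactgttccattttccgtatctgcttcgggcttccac
The TGFB2 window holds 2 SMAD boxes, 1 TGACG on the minus strand and 1 E-box, which overlaps the second SMAD box by its first base. The printed BMP4 window holds 1 E-box and 1 SMAD box, and the ID1 window holds none of the 4. Of the BMP4 windows not printed, the one furthest upstream holds 1 SMAD box and 2 GGCGCC, and the other 1 SMAD box. Sequence outside the windows was not searched. Of all 35116 promoter windows of this length in the table, 7.26% hold the E-box, 24.6% TGACG, 45.3% the SMAD box and 19.2% GGCGCC. These matches describe the letters only.

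The antagonists GREM1 and FST lay on both sides of ctrl. GREM1, gremlin 1, which holds BMP2, BMP4 and BMP7, had log2 ratios of 0.08 and -0.11 in sh-G1 and of 0.20 and -0.17 in sh-G2, with a mean of 0.00 ± 0.02 (SD, n = 2 clones). Its sign followed the dye, above 0 on both arrays with the knockdown clone in Cy5 and below 0 on the other two. FST, follistatin, which holds activins and some BMPs, gave -0.08 and 0.34 in sh-G1 and -0.15 and 0.07 in sh-G2, with the opposite dye order and a mean of 0.04 ± 0.12 (SD, n = 2 clones). Both probes were well above background in both channels on all 4 arrays, but dim. Their ctrl signal lay on average 1.02 (FST) and 1.67 (GREM1) above the lowest signal well above background, against 1.61 for BMP4. For such probes no change and too little signal cannot be told apart.

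ID1 encodes an inhibitor of basic helix-loop-helix transcription factors and is switched on directly by BMP-activated SMADs. It had log2 ratios of 0.08 and 0.04 in sh-G1 and of -0.73 and -0.26 in sh-G2. The ctrl signal was between 16.70 and 16.92, and the sh-G1 signal of 16.83 and 16.74 lay within that range, while the sh-G2 signal of 16.19 and 16.52 lay below it. The mean over both clones was -0.22 ± 0.40 (SD, n = 2 clones).

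With a ratio of at least 1.5-fold in one direction on all 4 arrays, 3 of the 9 genes were lower (BMP2, BMP4 and TGFB2) and 1 was higher (BMP7). Over all 16882 named genes, each by its brightest probe, 1.29% were lower and 0.355% higher by this rule. Since the 9 genes were selected on this contrast, nothing is read from these counts. The other 5 genes did not reach 1.5-fold on all arrays in one direction.

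The difference between the clones does not depend on ctrl, which cancels, and the rule did not choose the genes by it. It is made from the same ratios that the choice used, so its test is not independent of that choice. The difference was tested with limma over all 39152 probes with a term for dye. With Benjamini-Hochberg adjustment, 1 of the 9 genes passed, BMP2, with sh-G2 lower than sh-G1 by a log2 difference of -1.60 (SE 0.09, limma adjusted p = 0.0193). Over all named genes, 0.184% were called between the clones, and for the selected genes nothing is read from the count. BMP2 was near background in sh-G2 and well above it on 1 of 2 arrays. On sh-G2 replicate 2 it was kept through the ctrl channel alone. The size of its difference and the SE are thus limited by the background. The filter that requires both channels well above background removed BMP2 and left 0 members called. TGFB2 differed by -1.25 (SE 0.12, limma adjusted p = 0.0804) and ID1 by -0.56 (SE 0.15, limma adjusted p = 0.427). For BMP4 the difference was -0.10 (SE 0.09) and for the brightest BMP7 probe -0.08 (SE 0.13), with limma adjusted p of 0.905 and 0.966 (BMP4 was near background in both clones), and for TGFB1, INHBA, GREM1 and FST it lay between -0.24 and 0.03. Without the dye term the adjusted p of BMP2 was 0.472, and without sh-G1 replicate 2 (also without the dye term) it was 0.33 with a difference of -1.37. Without sh-G2 replicate 2 and the dye term TGFB2 passed as well (limma adjusted p = 0.0193). These p-values measure the spread between arrays of 1 culture of each clone, which may be technical.

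**Figure D3:**
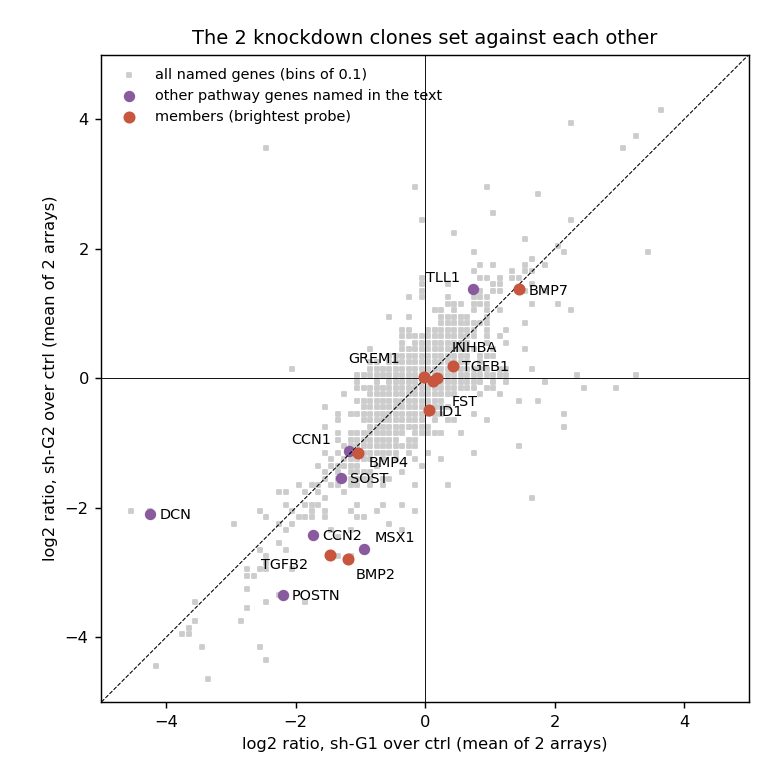
Mean log2 ratio over ctrl in sh-G1 (x axis) against that in sh-G2 (y axis), each over 2 arrays, for the 9 genes (red), for pathway genes named in the text (purple) and for all named genes (grey, bins of 0.1); the dashed line marks equal values, and ctrl is shared by both axes. BMP7, BMP4 and CCN1 lie near the line, BMP2, TGFB2, MSX1 and POSTN below it and DCN above it.

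To see the members beside the rest of the system, 122 other genes were listed by role, of which 119 are on the array and 116 were kept. In the limma test of the mean of both clones against 0, 0 of the 116 were higher and 2 were lower, against 0.184% higher and 0.906% lower of all named genes. At an unadjusted p under 0.05, 26 of the 116 passed, against 15.3% of all named genes. At least 1.5-fold on all 4 arrays, 1 was higher and 6 were lower, against 0.355% higher and 1.29% lower of all named genes. The median log2 ratio of the 116 genes was -0.02, against 0.00 for all named genes. Lists and members share the ctrl clone, and the test leaves out its spread: with ctrl given the spread of the knockdown clones, the test called 0 of the 116 genes, and 11 passed at an unadjusted p under 0.05, against 5.89% of all named genes.

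The other ligands lay mostly near ctrl, as did most genes on the array. Of the 14 further BMP and GDF ligands kept, 0 were called in either direction or reached 1.5-fold on all arrays. Of all named genes, 0.184% were called higher and 0.906% lower. A mean log2 ratio within 0.3 of 0 was found for 15461 of all 16882 named genes and for 13 of these 14 ligands. The exception was BMP5, of the same subgroup as BMP7, with log2 ratios of 0.57 and 0.38 in sh-G1 and of 0.42 and 0.09 in sh-G2, a mean of 0.36 that did not pass (limma adjusted p = 0.231). The 11 further ligands of the TGF-beta, activin and nodal branch all had a mean within 0.3 of 0. TGFB3, the other TGF-beta, had a mean of 0.00, but its sign followed the dye. Its log2 ratios were -0.36 and 0.16 in sh-G1 and -0.29 and 0.50 in sh-G2. Some ligands of both branches were dim, with 6.67% of kept probes dimmer than MSTN and 8.05% dimmer than GDF9. For such probes no change and too little signal cannot be told apart. Of the 17 receptors and co-receptors and the 18 SMADs and their regulators, 0 were called, with medians of -0.02 and -0.06. ACVR2B, a type II receptor for activins and BMPs, was the lowest receptor with -0.39 and SMAD5 was at -0.25, neither past the test (limma adjusted p = 0.161 and 0.569).

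Of 18 further extracellular antagonists, 1 fell past the test and 2 were at least 1.5-fold lower on all arrays. Of all named genes, 0.906% and 1.29% did so. SOST, sclerostin, an inhibitor of WNT signalling that also binds BMPs, had log2 ratios of -1.16 and -1.43 in sh-G1 and of -1.45 and -1.63 in sh-G2, and fell by a mean of 1.42 (SE 0.08, limma adjusted p = 0.0316). DCN, decorin, a matrix proteoglycan that binds TGF-beta, gave -4.12 and -4.37 in sh-G1 and -2.07 and -2.11 in sh-G2. Its mean of -3.17 did not pass the test against ctrl (SE 0.58, limma adjusted p = 0.187), while its difference between the clones did, with sh-G2 higher than sh-G1 by 2.15 (SE 0.14, limma adjusted p = 0.03). That call was lost without the dye term (limma adjusted p = 0.201) and without both sh-G1 replicate 2 and the dye term (0.0952). Noggin (NOG) and chordin (CHRD), the classic BMP antagonists, were at -0.02 and -0.02.

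Of 13 genes of latency and processing, 0 were called, against 0.184% higher and 0.906% lower of all named genes. Against 0.355% of all named genes, 1 was at least 1.5-fold higher on all arrays. This was TLL1, a tolloid-like protease that can cut the BMP antagonist chordin, with log2 ratios of 0.72 and 0.76 in sh-G1 and of 1.66 and 1.1 in sh-G2 and a mean of 1.06 (SE 0.18, limma adjusted p = 0.163). THBS1, thrombospondin 1, which can activate latent TGF-beta, was below 0 on all arrays with a mean of -0.43 (limma adjusted p = 0.136).

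**Figure D4:**
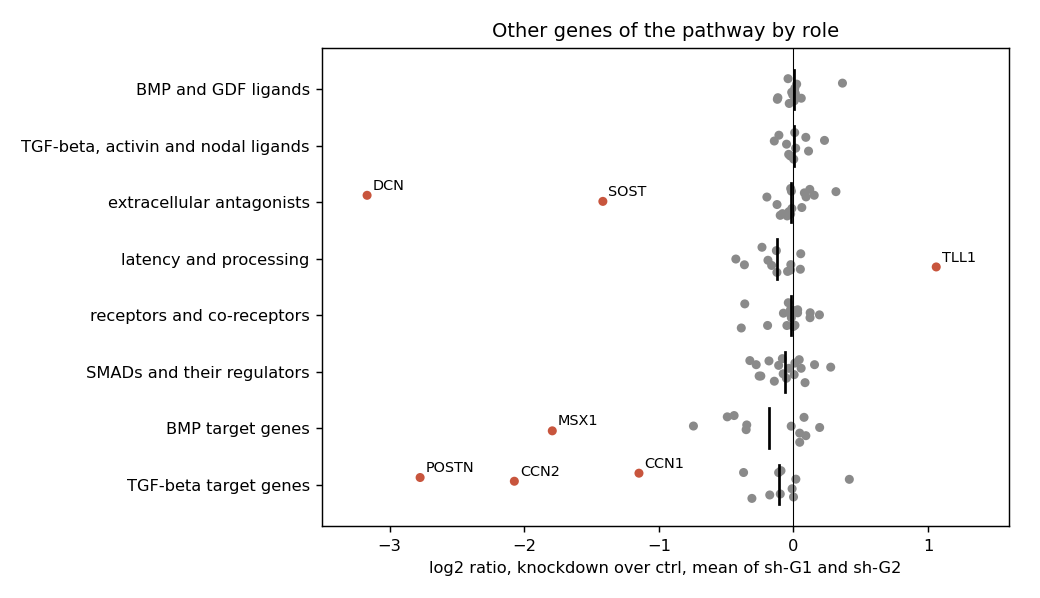
Mean log2 ratio of both knockdown clones over ctrl (x axis) for 116 other genes of the system, 1 point per gene by its brightest probe, in 8 roles (y axis; vertical spread within a role has no meaning), with the median of each role as a black bar. Red points with a name are past the limma test or at least 1.5-fold on all 4 arrays. Within 0.3 of 0 lie 94 of the 116 genes, and 15461 of all 16882 named genes.

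The BMP target genes had the lowest median of the 8 roles, -0.18 over 12 genes. It was -0.08 in sh-G1 alone and -0.28 in sh-G2 alone. The median was also lower in sh-G2 for the TGF-beta target genes (-0.02 and -0.21) and for latency and processing (-0.03 and -0.17). It was higher in sh-G2 for the TGF-beta, activin and nodal ligands (-0.01 and 0.03) and the receptors (-0.01 and 0.02). For all named genes it was -0.001 and -0.009. In the test against ctrl 0 of the 12 BMP target genes were called, against 0.184% higher and 0.906% lower of all named genes. Against 1.29% of all named genes, 1 was at least 1.5-fold lower on all arrays, MSX1, a homeobox transcription factor. It had log2 ratios of -0.96 and -0.94 in sh-G1 and of -2.67 and -2.60 in sh-G2, a difference between the clones of -1.68 (SE 0.12, limma adjusted p = 0.0446). The second MSX1 probe (A_24_P345837) gave -1.04 and -0.79 in sh-G1 and -2.96 and -2.20 in sh-G2, with a clone difference that missed the threshold (limma adjusted p = 0.0683). The arrays of the clones did not overlap on either probe, and sh-G2 was the lower one, as for BMP2. The call for the brighter probe was lost with no background correction (limma adjusted p = 0.0571), with median centring (0.0545), with both channels required above background (0.0584) and without the dye term (0.309). With 1 array left out and no dye term, it was also lost without sh-G1 replicate 1 (limma adjusted p = 0.223) and without sh-G1 replicate 2 (0.328). By their brightest probes, DCN and MSX1 were the 2 of the 116 pathway genes called between the clones, against 0.184% of all named genes.

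The further ID genes, which encode the same kind of inhibitor as ID1, were below 0 on both arrays of sh-G2. ID2 had log2 ratios of 0.00 and -0.22 in sh-G1 and of -0.57 and -0.98 in sh-G2. ID3 gave 0.14 and -0.13 in sh-G1 and -0.93 and -0.49 in sh-G2. ID4 was below 0 on every array, at -0.83 and -0.35 in sh-G1 and at -1.22 and -0.57 in sh-G2. The difference between the clones was -0.67 for ID2, -0.72 for ID3 and -0.31 for ID4, and it did not pass for any of them (limma adjusted p = 0.253, 0.471 and 0.696). HEY1, a transcriptional repressor also induced by Notch, was below 0 on all arrays with a mean of -0.49, and MSX2, TBX2 and TBX3 were at 0.09, 0.19 and 0.08. DLX2, RUNX2 and TBX2 of the same list went the other way, higher in sh-G2 than in sh-G1 by 0.29, 0.22 and 0.13. None of these differences passed either (limma adjusted p = 0.793, 0.677 and 0.901).

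**Figure D5:**
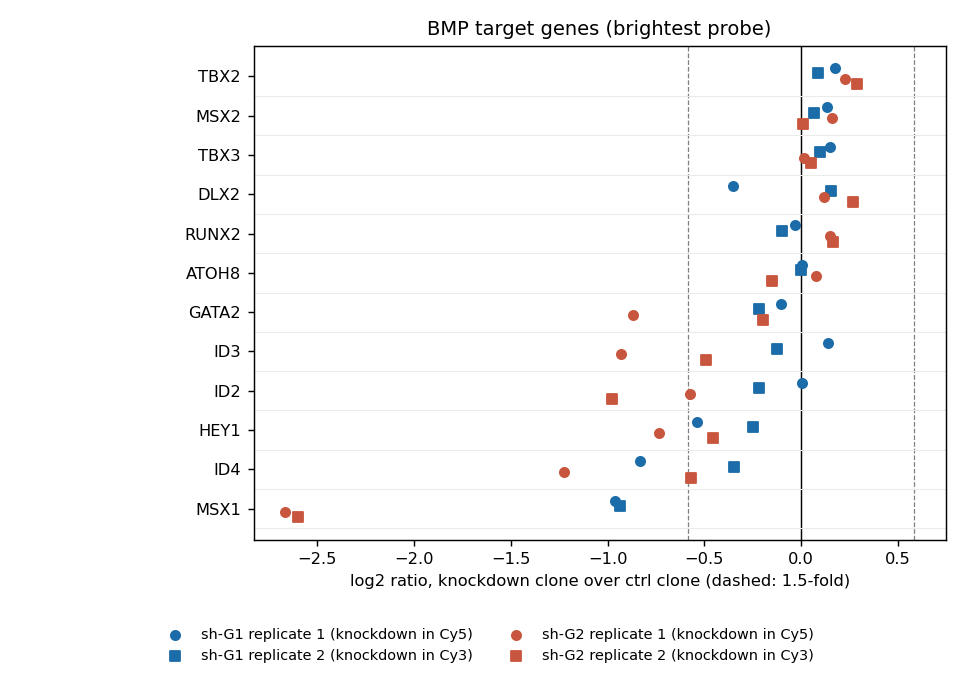
Log2 ratio of knockdown clone over ctrl clone (x axis) on each array for 12 BMP target genes by their brightest probe (y axis); symbols as in the plot of the 9 genes by array. MSX1 lies lower in sh-G2 than in sh-G1, and ID2 and ID3 are near 0 in sh-G1 and below 0 in sh-G2. DLX2, RUNX2 and TBX2 lie on average higher in sh-G2 than in sh-G1.

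Among 13 TGF-beta target genes, 1 fell past the test and 3 were at least 1.5-fold lower on all arrays. Of all named genes, 0.906% and 1.29% did so. CCN1 (CYR61), a matricellular protein, fell by a mean of 1.15 (SE 0.06, limma adjusted p = 0.0295), with log2 ratios of -1.19 and -1.15 in sh-G1 and of -1.16 and -1.09 in sh-G2. CCN2 (CTGF), its relative, gave -1.83 and -1.64 in sh-G1 and -2.28 and -2.56 in sh-G2, and its mean did not pass (limma adjusted p = 0.0642). POSTN, periostin, a matrix protein, had log2 ratios from -2.43 to -1.97 in sh-G1 and from -3.36 to -3.33 in sh-G2, and did not pass either (limma adjusted p = 0.0885). FN1, fibronectin, had a mean of 0.02. SOST, DCN, TLL1, THBS1, MSX1, CCN1, CCN2 and POSTN are on lists that the study chose on these arrays, so their direction is not independent evidence.

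The genes whose 4 log2 ratios lay closest to those of a ligand were found by Euclidean distance over the 4 arrays, among all named genes outside the 9, which share the ctrl channel with the ligands. For BMP2 they were NID2 (distance 0.33), a basement membrane nidogen, MSX1 (0.56) and NUDT10 (0.71), an inositol phosphate hydrolase. The mean of NID2 was -1.33 in sh-G1 and -2.78 in sh-G2, against -1.19 and -2.79 for BMP2. For BMP4 they were PDGFRA (0.17), a receptor for platelet-derived growth factor, MCTP1 (0.19), a membrane protein with C2 domains, and RHOBTB1 (0.22). For BMP7 they were TSC22D1 (0.38), a leucine zipper protein first found as induced by TGF-beta, DNAJC12 (0.43), a co-chaperone, and KRT222 (0.44), a keratin relative. NID2, MSX1, NUDT10, PDGFRA, RHOBTB1, TSC22D1 and DNAJC12 are also on the lists that the study chose on these arrays.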

How the data were processed

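Total RNA of 2 GALNT3 knockdown clones and 1 ctrl clone was compared on 4 two-colour Agilent arrays. The authors deposited, for each spot and dye, the median intensity and the local background intensity, read with Feature Extraction (version 10.5.1.1 per the file headers, 8.5.1.1 per the labels). They also deposited a log10 ratio of Cy5 over Cy3, which the software makes from background-subtracted, dye-normalized signals. The value table repeats this log10 ratio for 3 arrays and, as deposited, holds an error score for the other, which was not used. The files' p-values of single spots were not used.

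From the intensities, background was corrected with normexp (offset 50), spots with an outlier mark were left out, log2 ratios were normalized by loess within arrays with limma 3.58.1 in R 4.3.3 and turned to knockdown over ctrl. Channel signals were also scaled between arrays (Aquantile). A probe was kept where either channel was well above background on each array (39152 of 40905). Of 41000 probes, 25398 were named by accession through RefSeq, and a gene stands by its brightest probe. The 2 arrays of a clone were averaged (n = 2 clones) for the test against 0 (lmFit, eBayes with a trend on brightness). The clones were compared on the 4 arrays with a dye term. Dye orientation is the only thing that the labels say replicate numbers share, so dye and an unlabelled batch cannot be told apart. Deviations from the clone mean correlated between arrays of the same orientation with r = 0.69. All p-values are Benjamini-Hochberg adjusted over the probes kept, at 0.05, except where they are called unadjusted. The fits were tested on simulated data. The number of arrays limits the precision.

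Members and gene lists were chosen with earlier results of these data known. Named are all members, GALNT3, listed pathway genes past the limma test or at least 1.5-fold on all arrays, and the 3 nearest genes of BMP2, BMP4 and BMP7. Others were named after their values were seen, and some listed genes are counted but not reported by name. Alternatives covered background correction, normalization, the software's ratios, the value table, outlier spots, the dim filter, probe choice, fold, spread and blocks, and each array and clone left out.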

Additional observations from a re-analysis of the deposited data

Results flagged for a closer look

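The log2 ratio differed between the knockdown clones past the limma threshold for the brightest probes of BMP2, DCN and MSX1. In sh-G2 relative to sh-G1, BMP2 differed by -1.60 (limma adjusted p = 0.0193), MSX1 (A_23_P110430) by -1.68 (limma adjusted p = 0.0446) and DCN by 2.15 (limma adjusted p = 0.03). All had the direction on both arrays of each clone, and the sh-G2 signal of BMP2 was near background. Over the alternatives the adjusted p ran from 1.95e-07 to 0.472 for BMP2, from 0.000357 to 0.328 for MSX1 and from 1.16e-06 to 0.201 for DCN.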

How the results depend on the processing

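BMP2, BMP4, BMP7, TGFB1 and TGFB2 kept their direction under every alternative that gave a value, and the signs of INHBA, GREM1, FST and ID1 did not. The filter on both channels removed BMP2 and BMP4. The difference between BMP7 and the mean of BMP2 and BMP4 (2.96) was 3.58 with an offset of 0, 3.89 with the software's ratio and 3.76 with the value table, and 2.85 to 3.06 with each array left out. The 6 pathway genes at least 1.5-fold lower stayed between 5 and 7, and the 1 higher became 2 without clone sh-G2 and 0 at 2-fold. The 2 genes called lower in limma became 6 with the value table, 12 with clone as a random block, 0 with ctrl given a spread and 4 to 8 with each array left out (5 and 8 without sh-G1 replicate 1 and 2, 7 and 4 without sh-G2 replicate 1 and 2). The 0 called higher became 1 with the value table, 3 with the random block and 0 to 1 with each array left out.

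Between the clones, leaving out the dye term (no replicate block) gave 0 members and 0 pathway genes called, in place of 1 and 2, and no direction changed. The filter on both channels gave 0 members and 1 pathway gene, and no background correction and median centring 1 pathway gene each. With each array left out and no dye term, an alternative added after the data were seen, 0 to 2 members and 0 to 3 pathway genes were called, since with the dye term no residual degree of freedom was left. The counts for pathway genes between clones were also added then. The causes were not tested.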
